A study of Mus musculus with 9 samples.

Results

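The muscle Kelch-like genes described here are 7 members of the BTB-Kelch family, Klhl40, Klhl41, Klhl31, Klhl24, Klhl30, Klhl33 and Klhl38, out of 15779 genes in the deposited tables. They were chosen by name, and the family was selected on measured values of these same libraries, because Klhl33 was much lower in mutant hearts. All 7 were found in the tables, and all 7 passed the filter on low values. The RNA came from adult hearts of C57BL/6J mice, with 9 polyA libraries in 3 groups of 3. Wild-type mice received saline. Mice homozygous for the R946X allele of Mybpc3, a premature stop codon in the gene of cardiac myosin-binding protein C, received either saline (called saline mutants below) or a treatment that the labels name high-dose-exABE8e (called treated mutants). ABE8e is the name of an adenine base editor, an enzyme that turns A-T base pairs into G-C pairs; the labels did not define the prefix, the dose, the sex or the age. The study's design text says that the editors were delivered with adeno-associated virus for expression in cardiomyocytes, and none of the 3 groups received a vector without an editor.

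BTB-Kelch proteins join a BTB domain, which binds the scaffold CUL3 of a ubiquitin ligase, to a Kelch propeller, which holds the substrate. Several act in striated muscle. KLHL40 and KLHL41 stabilise proteins of the thin filament, among them nebulin and leiomodin, and loss of either causes nemaline myopathy. KLHL31 acts on filamin C, and KLHL24 on intermediate filament proteins such as desmin and keratin 14. The roles of KLHL30, KLHL33 and KLHL38 are less well described.

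Among the 7 genes, Klhl33 was the one that was lower in every saline mutant than in every wild-type heart, and its values in the treated mutants lay between those groups. Every Klhl40 value of both mutant groups was above every wild-type value, within a low range of 8 to 17. Of all tested genes, 12.8% were higher without overlap in saline mutants and 9.13% in treated mutants. The Klhl40 difference was not tested in saline mutants and did not pass in treated mutants (limma adjusted p = 0.143). The 2 mutant groups overlapped with each other. The other 5 genes overlapped between all 3 groups. Of 10 tested partners and substrates of these proteins, 5 passed the limma test as higher in saline mutants than in wild type. They were Neb, Flnc, Nrap, Des and E2f1, and 7.71% of all genes passed in either direction. The calls of Des, Flnc and Nrap were lost under some other settings. The list was chosen with earlier results of these data known, so the count is no test of it.

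The bases before the transcription start were read for the members with an entry in the RefSeq promoter table (GRCm38.p6), which held 5 windows for 4 of the 7 genes. Those of Klhl33, Klhl41 and Klhl40 are shown, 250 bases each, because Klhl33 and Klhl40 were the members whose groups did not overlap, and because Klhl41 shares with Klhl33 a match to the binding motif of MEF2, a transcription factor of heart and skeletal muscle. Capitals mark that match, and every window is written 5′ to 3′ on the gene's strand and ends at the base before the start that RefSeq gives. The Klhl33 window is chr14:50897484-50897733 on the minus strand, the Klhl41 window chr2:69669870-69670119 and the Klhl40 window chr9:121777357-121777606, both on the plus strand. The RefSeq start of Klhl33 lies inside the GENCODE gene given below, so the last bases of its window overlap that gene, and motif positions count from the RefSeq start.
Klhl33: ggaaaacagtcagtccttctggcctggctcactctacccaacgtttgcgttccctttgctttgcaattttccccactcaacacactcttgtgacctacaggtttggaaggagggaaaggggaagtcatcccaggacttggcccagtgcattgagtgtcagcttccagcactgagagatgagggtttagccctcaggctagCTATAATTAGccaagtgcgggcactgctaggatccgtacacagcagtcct
Klhl41: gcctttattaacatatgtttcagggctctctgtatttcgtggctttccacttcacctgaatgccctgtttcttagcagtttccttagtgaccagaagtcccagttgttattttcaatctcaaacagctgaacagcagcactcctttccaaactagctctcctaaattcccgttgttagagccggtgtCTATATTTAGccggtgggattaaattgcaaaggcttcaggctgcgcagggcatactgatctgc
Klhl40: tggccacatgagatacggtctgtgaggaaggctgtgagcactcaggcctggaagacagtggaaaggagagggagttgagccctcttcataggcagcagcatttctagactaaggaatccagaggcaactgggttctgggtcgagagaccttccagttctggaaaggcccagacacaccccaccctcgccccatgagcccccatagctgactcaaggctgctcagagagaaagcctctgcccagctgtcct

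The MEF2 match in the Klhl33 window, CTATAATTAG, lay from -50 to -41 relative to the RefSeq start, and that in the Klhl41 window, CTATATTTAG, from -63 to -54. Such a match was present in 555 of 32841 RefSeq promoter windows (1.69%). None was found in the Klhl40 window, in the window of Klhl31 or in a second Klhl33 window at chr14:50895353-50895602. The E-box, CANNTG, which was present in 66.2% of all windows, occurred 4 times in the Klhl41 window, 3 times in the Klhl40 window and once in the first Klhl33 window, from -39 to -34. Motifs were searched on both strands, and E-box and MEF2 matches did not overlap in these windows. The MCAT motif, CATTCC, which was present in 12.6% of windows, occurred in the second Klhl33 window from -63 to -58. The GATA motif, AGATAA (9.99% of windows), and the CArG box of serum response factor (1.47%) had no match in any of the 5 windows. A match describes these letters and does not show that a factor binds there.

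The deposited values are whole numbers that summed to between 999152 and 999382 in each library, so they are scaled values and not read counts. The sequencing depth is unknown, and no counting error could be given. Whether the values were divided by gene length is not stated, so levels are not compared between genes. Between 14151 and 14934 genes were above 0 in a library, and mitochondrial genes held 17.0% to 24.1% of the total. Mybpc3, the mutated gene, was 1510, 1795 and 2039 in wild-type libraries 1 to 3, 133, 142 and 186 in the saline mutants and 1024, 1374 and 1332 with treatment. Xist, the RNA of the inactive X chromosome, was above 0 in 1 library of each group, at 119 in wild type 1, 351 in mutant 3 and 39 in treated 1. The Y-linked gene Ddx3y was 0 in wild type 1 and mutant 3, and 38 in treated 1, which thus held both transcripts. The 10 ventricular cardiomyocyte markers summed to 51820 to 58604 in wild type, 51921 to 62691 in saline mutants and 56059 to 57387 in treated mutants, and none of them passed the test in any comparison. The sum hides opposite shifts of single markers. Against wild type, 3 of the 10 were higher without overlap in saline mutants (12.8% of all tested genes) and 3 lower (8.78%). Nothing in the labels says whether the replicates were separate animals. Wild type 1 and mutant 3 held Xist without Ddx3y. The other saline libraries held Ddx3y without Xist, at 78 and 70 in wild type and 97 and 85 in mutants. Neither saline group therefore came from 1 animal alone, and each mixed the sexes. The p-values measure the spread between these libraries, which may be technical in part.

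**Figure D1:**
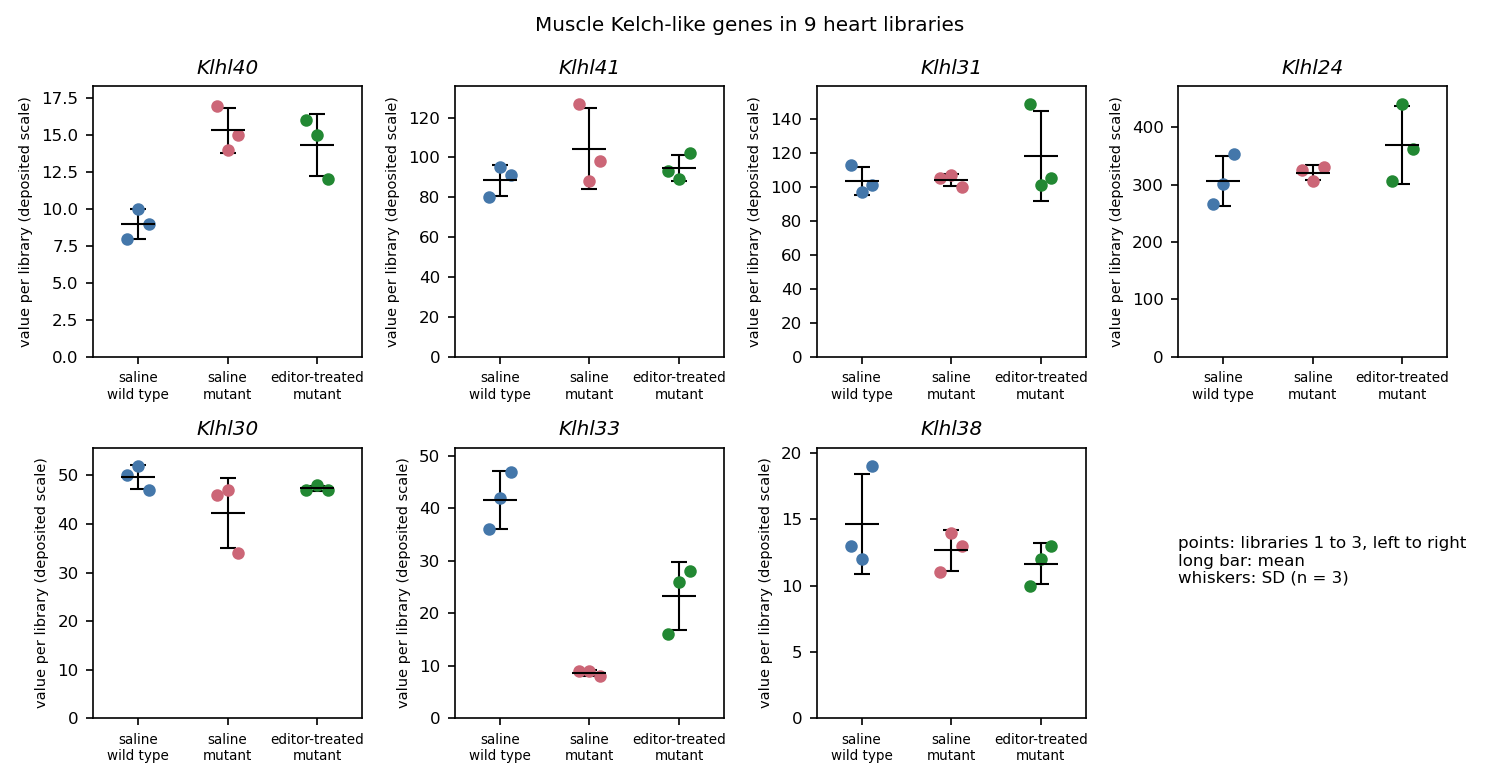
Values of the 7 muscle Kelch-like genes in each library (deposited scale, axes from 0), with wild type in blue, saline mutants in red and treated mutants in green. Long bars are group means and whiskers the SD of 3 libraries. Klhl33 falls from 36 to 47 in wild type to 8 or 9 in saline mutants and lies at 16 to 28 in treated mutants, while Klhl40 lies at 8 to 10 in wild type and 12 to 17 in both mutant groups.

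Klhl40 (chr9:121777607-121783818, plus strand, 6 exons, 621 codons, GRCm38) encodes the chaperone-like adaptor of nebulin and leiomodin 3. Its values were 8, 10 and 9 in the wild-type libraries, 17, 14 and 15 in the saline mutants, and 16, 15 and 12 in the treated mutants. Every library of both mutant groups was above every wild-type library. The means were 9 ± 1, 15.3 ± 1.53 and 14.3 ± 2.08 (SD, n = 3), which put the saline mutants at 170% and the treated mutants at 159% of the wild-type mean. On the log2(value + 1) scale, where the change of a weakly expressed gene is understated, saline mutants were 0.71 higher than wild type. That difference belongs to the contrast on which the family was chosen and was not tested. Between treated and saline mutants the difference was -0.10 (SE 0.154, 95% interval -0.45 to 0.26, limma adjusted p = 0.893). Treated mutants were 0.61 above wild type (SE 0.148, 95% interval 0.27 to 0.96), with an unadjusted limma p of 0.00374 and an adjusted p of 0.143, so the difference did not pass the threshold of 0.05 over all genes. Under 17 other settings the adjusted p ran from 0.0759 to 0.712. The gene overlaps the antisense gene Gm47108, and whether the counting used strand is not stated.

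Klhl41 (chr2:69670120-69684230, plus strand, 6 exons, 606 codons) encodes the other nebulin-stabilising member, which also binds the assembly protein NRAP. It measured 80, 95 and 91 in wild type, 127, 88 and 98 in saline mutants, with 93, 89 and 102 in treated mutants. The groups overlapped, and the highest value, 127, came from mutant 1 alone. The group means were 88.7 ± 7.77, 104 ± 20.3 and 94.7 ± 6.66 (SD, n = 3). Treated mutants differed from saline mutants by -0.12 (SE 0.146, 95% interval -0.46 to 0.21, limma adjusted p = 0.851) and from wild type by 0.09 (SE 0.107, 95% interval -0.15 to 0.34, limma adjusted p = 0.782).

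Klhl31 (chr9:77636500-77660127, plus strand, 3 exons, 634 codons), the adaptor for filamin C, had values of 113, 97 and 101 in wild type and 105, 107 and 100 in saline mutants. Treated mutants gave 149, 101 and 105. The saline groups covered nearly the same range, and treated 1 stood above all other libraries. The treated group therefore had the widest spread of the 3, at 118 ± 26.6 against 104 ± 8.33 in wild type and 104 ± 3.61 in saline mutants (SD, n = 3). Treated mutants differed from saline mutants by 0.16 (SE 0.152, 95% interval -0.19 to 0.51, limma adjusted p = 0.825) and from wild type by 0.17 (SE 0.16, 95% interval -0.20 to 0.54, limma adjusted p = 0.741). Without treated 1 those differences were -0.014 and -0.0065.

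Klhl24 (chr16:20097542-20129221, plus strand, 8 exons, 600 codons) encodes the adaptor whose activating mutations cause skin fragility and cardiomyopathy. It was measured at 266, 302 and 353 in wild type, 326, 306 and 331 in saline mutants, with 306, 441 and 362 in treated mutants. The saline mutants lay within the wild-type range, and treated 2 held the highest value. Means were 307 ± 43.7, 321 ± 13.2 and 370 ± 67.8 (SD, n = 3). Treated mutants differed from saline mutants by 0.19 (SE 0.139, 95% interval -0.13 to 0.50, limma adjusted p = 0.752) and from wild type by 0.26 (SE 0.161, 95% interval -0.12 to 0.64, limma adjusted p = 0.566).

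Klhl33 (chr14:50888582-50897507, minus strand, 4 exons, 793 codons) had values of 36, 42 and 47 in the wild-type libraries. The saline mutants gave 9, 9 and 8, and the treated mutants 16, 26 and 28. The 3 groups did not overlap in any pairing. The means were 41.7 ± 5.51, 8.67 ± 0.577 and 23.3 ± 6.43 (SD, n = 3), so saline mutants were at 20.8% and treated mutants at 56.0% of the wild-type mean. Since this gene's fall chose the family, its differences are described without a test. They were -2.14 for saline mutants against wild type, rank 18 from the lowest of 13632 genes, 1.30 for treated against saline mutants, and -0.84 for treated mutants against wild type, rank 40 from the lowest of 13554. In the authors' deposited table the corresponding log2 fold changes of Klhl33 were -2.34 (SE 0.409), 1.46 (SE 0.508) and -0.86 (SE 0.365). Klhl33 was the only one of the 7 genes in the authors' deposited lists of selected genes. Those lists hold 689, 137 and 317 of the 15779 genes for the 3 comparisons. They rest on the same libraries whose values chose the family, so nothing is read from the listing.

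The 3 treated libraries differed among themselves in Klhl33. On a scale where the saline mutant mean is 0 and the wild-type mean is 1, treated 1, 2 and 3 lay at 0.222, 0.525 and 0.586 for Klhl33, with a mean of 0.444 ± 0.195 (SD, n = 3). Mybpc3 on the same scale lay at 0.535, 0.75 and 0.724, so treated 1 was the lowest of the treated libraries for both genes. Within each group the library with Xist also had the lowest Klhl33 value, 36 in wild type 1, 8 in mutant 3 and 16 in treated 1. Without those 3 libraries the Klhl33 differences were -2.18, 1.48 and -0.70 in the order given above, and without treated 1 alone the last difference was -0.60. In bulk tissue, fewer cells that express a gene and less RNA per cell cannot be told apart.

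Klhl30 (chr1:91351016-91362416, plus strand, 8 exons, 581 codons) was measured at 50, 52 and 47 in wild type, 46, 47 and 34 in saline mutants, with 47, 48 and 47 in treated mutants. The groups touched at 47, and mutant 3 alone was well below the rest. Treated mutants had the smallest spread, 47.3 ± 0.577, against 49.7 ± 2.52 in wild type and 42.3 ± 7.23 in saline mutants (SD, n = 3). They differed from saline mutants by 0.17 (SE 0.141, 95% interval -0.15 to 0.49, limma adjusted p = 0.793) and from wild type by -0.07 (SE 0.0917, 95% interval -0.28 to 0.15, limma adjusted p = 0.830). Klhl38 (chr15:58314573-58324169, minus strand, 4 exons, 581 codons) had values of 13, 12 and 19 in wild type, 11, 14 and 13 in saline mutants, with 10, 12 and 13 in treated mutants. Apart from 19 in wild type 3, all its libraries lay between 10 and 14. Treated mutants differed from saline mutants by -0.11 (SE 0.158, 95% interval -0.47 to 0.25, limma adjusted p = 0.874) and from wild type by -0.29 (SE 0.189, 95% interval -0.73 to 0.15, limma adjusted p = 0.585). Klhl38 overlaps the antisense gene Gm15943.

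**Figure D2:**
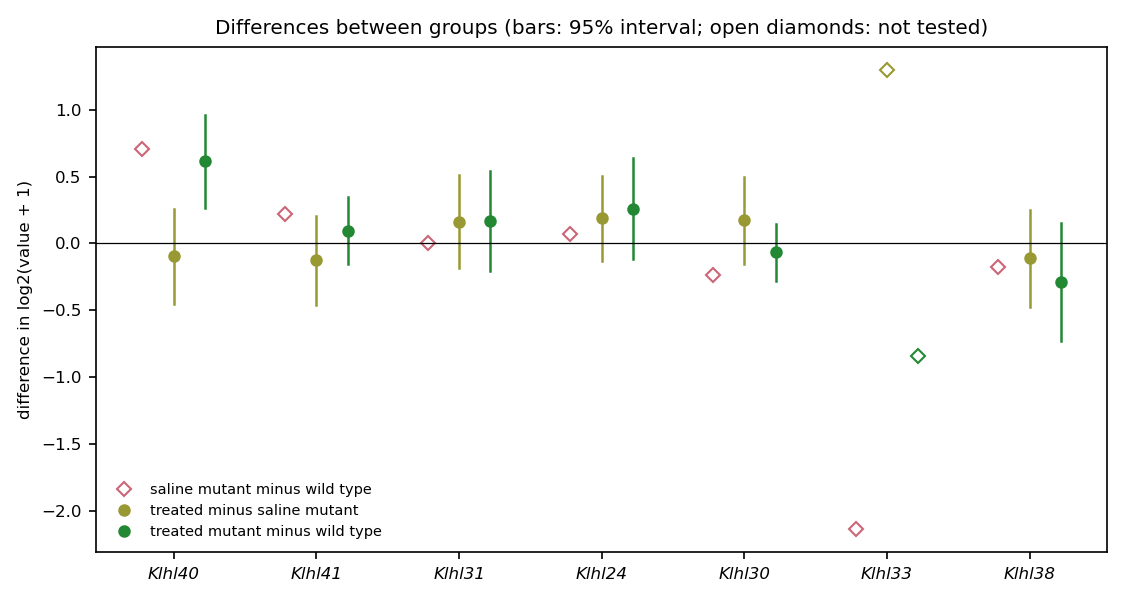
Differences between group means in log2(value + 1) for each of the 7 genes in the 3 comparisons. Filled points carry 95% intervals from limma and open diamonds are differences described without a test. The interval of Klhl40 in treated mutants against wild type, 0.27 to 0.96, is the one among the 12 drawn that does not include 0.

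Counted over the family, 1 of the 7 genes was higher without overlap in saline mutants than in wild type (Klhl40), against 12.8% of all tested genes, and 1 was lower without overlap (Klhl33), against 8.78%. Their median difference was 0.01, or 0.04 for the 6 genes other than Klhl33, beside 0.07 over all genes. This contrast chose the family, and nothing is read from these counts. In treated against saline mutants, 1 of 7 was higher without overlap (Klhl33, all genes 5.48%), none was lower (all genes 4.34%), and the median was 0.16, or 0.03 without Klhl33, beside -0.02 over all genes. Of the 6 genes tested there, none passed the limma test at an adjusted p under 0.05, where 0.0293% of all genes did, and none had an unadjusted p under 0.05, where 8.29% of all genes did. In treated mutants against wild type, 1 of 7 was higher without overlap (Klhl40, all genes 9.13%), 1 was lower (Klhl33, all genes 5.43%), and the median was 0.09, or 0.13 without Klhl33, beside 0.01 over all genes. Again none of the 6 passed the limma test, where 0.989% of all genes did, and 1 (Klhl40) had an unadjusted p under 0.05, as 12.5% of all genes did. These tests share the saline libraries with the contrast on which the family was chosen. Klhl33 was the 1 gene of the 7 with saline mutants below treated mutants below wild type without overlap, an order found in 1.52% of all genes. The fall of Klhl33 that chose the family makes up part of that order, so nothing is read from the share.

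The members also differed in how steady they were between libraries of a group. The coefficient of variation within wild type ran from 5.07% for Klhl30 to 25.8% for Klhl38, within saline mutants from 3.47% for Klhl31 to 19.4% for Klhl41, and within treated mutants from 1.22% for Klhl30 to 27.6% for Klhl33. Across the 9 libraries Klhl33 and Klhl40 ran in opposite directions, with a Pearson r of -0.808 between their log2 values. Klhl33 and Klhl30 had an r of 0.63, Klhl40 and Klhl41 0.561, and Klhl40 and Klhl38 -0.588. The other 17 of the 21 pairs lay between -0.493 and 0.381. These are descriptions over 9 libraries that share the group structure, and they carry no test. Within the treated group, treated 3 held the highest Klhl33 (28) and the lowest Klhl40 (12), and treated 1 the lowest Klhl33 (16) and the highest Klhl40 (16).

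Of 8785 genes whose mean was 10 or more, the 5 whose log2 values were most like those of Klhl33 over the 9 libraries were Kcnd2, Fam131a, Mylk4, Kcnip2 and Kcnj3. Kcnd2, a pore-forming subunit of the transient outward potassium current, had a Pearson r of 0.992 to Klhl33, with values of 30, 38 and 37 in wild type, 8, 6 and 5 in saline mutants, with 12, 21 and 21 in treated mutants. Fam131a (r = 0.990) measured 28, 34 and 33, then 13, 13 and 12, then 17, 21 and 23 in the same order of groups. Mylk4, a kinase of the myosin light chain kinase family (r = 0.988), measured 200, 246 and 252, then 64, 53 and 41, then 83, 126 and 144. All 3 genes had treated 1 as the lowest treated library, as Klhl33 did. Kcnip2, the accessory subunit of channels of the Kcnd family (r = 0.986), measured 206, 224 and 217, then 120, 119 and 99, then 145, 180 and 174. Kcnj3, a subunit of the acetylcholine-activated potassium channel (r = 0.982), measured 54, 48 and 51, then 10, 11 and 9, then 23, 30 and 28. The saline mutant means of the 5 genes were 18.1% to 52.2% of wild type and the treated means 50.6% to 77.1%, beside 20.8% and 56.0% for Klhl33. Spearman's rho for the 5 genes ran from 0.929 to 0.996. The groups themselves make up most of this pattern, and no test is given.

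**Figure D3:**
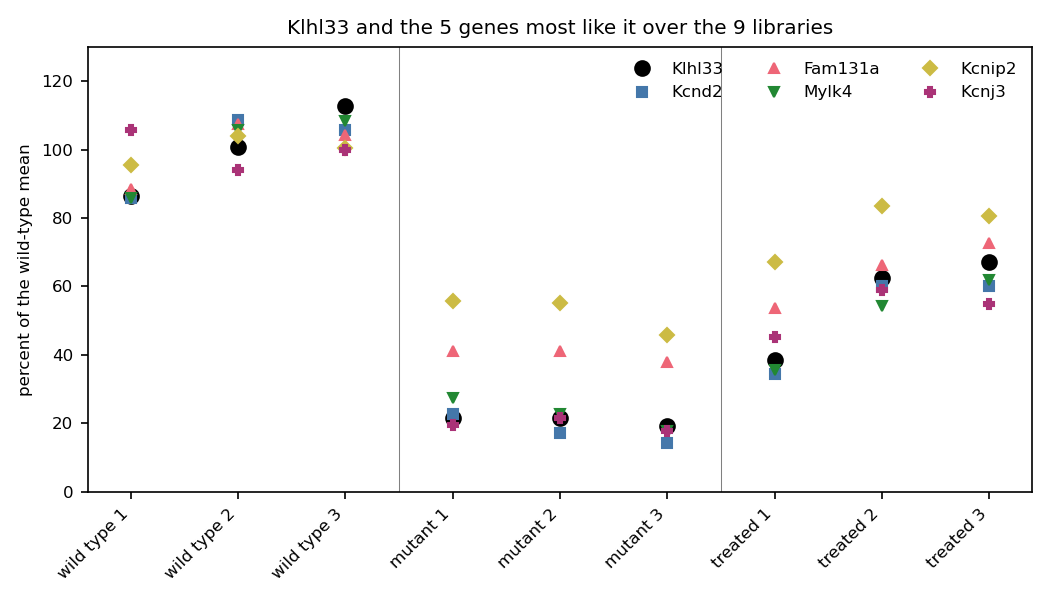
Values of Klhl33 (black) and of the 5 genes most like it in each of the 9 libraries, as a percent of each gene's wild-type mean. In the saline mutants Klhl33, Kcnd2, Mylk4 and Kcnj3 lie lowest and Kcnip2 highest, and treated 1 is the lowest treated library for all 6 genes.

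The genes beside Klhl33 on chromosome 14 did not pass the test in any comparison. Tep1, 18022 bases away, was 14, 17 and 17 in wild type, 16, 18 and 22 in saline mutants, with 13, 22 and 18 in treated mutants, and differed between the saline groups by 0.20 (limma adjusted p = 0.525). Osgep, 8971 bases away on the other side, was 42, 37 and 35, then 31, 32 and 33, then 39, 32 and 34 (difference between the saline groups -0.24, limma adjusted p = 0.287). Tep1 overlapped between the saline groups, and Osgep was lower in every saline mutant than in every wild-type library. Of the 14 nearest genes on either side of the 7 members, 12 were tested, and 2 of them passed the limma test in saline mutants against wild type, where 7.71% of all genes did. None passed in the other comparisons. The 2 that passed lie on either side of Klhl40 and are named here after their values were seen, and the smallest adjusted p among the other 10 was 0.23. Zfp651, 5865 bases away, rose from 149, 146 and 151 to 194, 221 and 195 (difference 0.45, adjusted p = 0.0229). Hhatl, whose nearest base lies 198 bases beyond Klhl40 and which is read from the opposite strand, fell from 85, 88 and 89 to 70, 60 and 52 (difference -0.53, adjusted p = 0.0341). Both calls were lost without any 1 of wild type 1, 2 or 3 or mutant 2, with adjusted p from 0.0566 to 0.135, and that of Hhatl also without mutant 3 (0.0853).

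The rest of the BTB-Kelch family was examined with a list of 43 further genes, of which 39 were in the tables and 38 were tested. In saline mutants against wild type 1 rose and 1 fell, 2 of 38 where 7.71% of all genes passed the limma test, and the median difference was 0.06 beside 0.07 over all genes. Klhl34 rose from 4, 6 and 6 in wild type to 24, 20 and 18 in saline mutants, and the treated mutants gave 16, 16 and 14. Those 3 groups did not overlap, in an order (wild type, treated, saline mutants) found in 0.976% of all genes. Klhl34 is named for its call between the saline groups, which makes up part of that order, so nothing is read from the share. Klhl34 was 1.78 higher in saline mutants than in wild type (SE 0.184, limma adjusted p = 0.000863) and 1.38 higher in treated mutants than in wild type (SE 0.166, adjusted p = 0.0237). The difference between treated and saline mutants was -0.40 (adjusted p = 0.512). The call against wild type in treated mutants was lost without wild type 1, 2 or 3 (adjusted p = 0.0612, 0.0726 and 0.0687) and without treated 1 or 2 (0.0638 and 0.0702). Klhl23 measured 49, 64 and 55 in wild type, 38, 36 and 39 in saline mutants, with 37, 43 and 48 in treated mutants. It fell by 0.55 in saline mutants (SE 0.122, limma adjusted p = 0.0282), a call lost without wild type 2 or 3 (0.0899 and 0.0930) and without mutant 1, 2 or 3 (0.0564, 0.132 and 0.0614).

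In treated against saline mutants none of the 38 genes passed the limma test (all genes 0.0293%), and 4 had an unadjusted p under 0.05, a share close to the 8.29% of all genes. In treated mutants against wild type 1 of the 38, Klhl34, passed, where 0.989% of all genes did. The lowest difference of the list between the saline groups was that of Kbtbd13, another nemaline myopathy gene, with values of 3, 4 and 4 against 2, 2 and 2 (-0.63, SE 0.181, limma adjusted p = 0.0776). The rule for names also took Ivns1abp and Klhl21. Ivns1abp, which binds an influenza virus protein, ran from 1117 to 1497 in wild type, 1192 to 1619 in saline mutants and 1391 to 1781 in treated mutants. Klhl21, a CUL3 adaptor in cell division, was 103, 108 and 121, then 84, 91 and 75, then 97, 122 and 104, and differed between the saline groups by -0.41 (limma adjusted p = 0.0697).

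**Figure D4:**
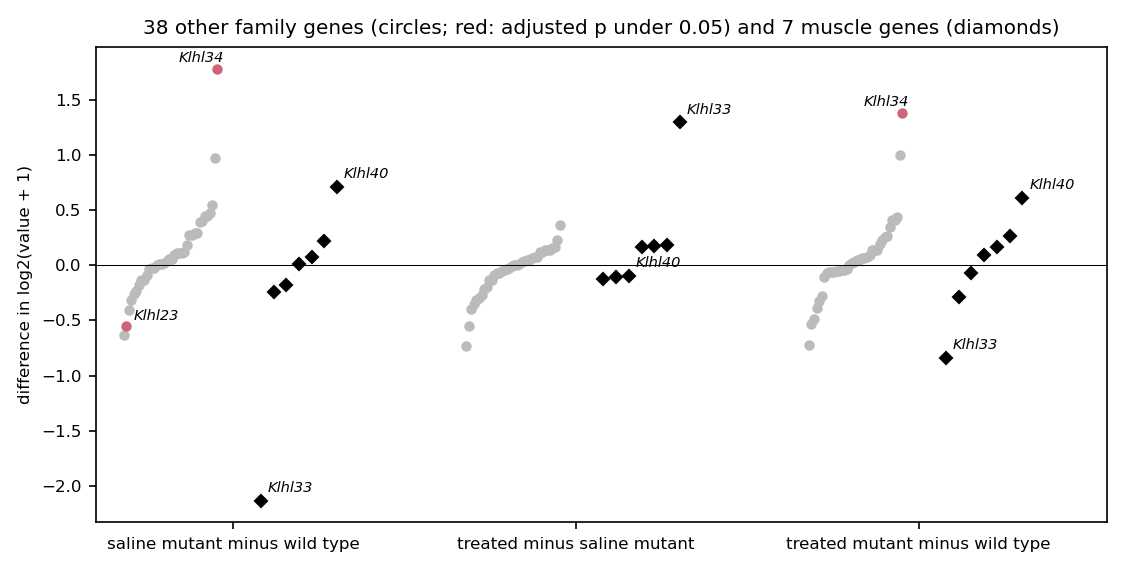
Differences in log2(value + 1) in the 3 comparisons for 38 other BTB-Kelch genes (circles, red where the limma adjusted p is under 0.05) and for the 7 muscle genes (diamonds), each set sorted from low to high. Klhl33 lies at -2.14, below all 38 circles in saline mutants against wild type, and Klhl34 is the highest circle at 1.78. The fall of Klhl33 chose the family, so nothing is read from its place below the circles.

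The ligase to which these adaptors bind was examined with 25 genes of CUL3, its exchange factors, the COP9 signalosome and neddylation, all of which were tested. None passed the limma test in any comparison, and 3, 2 and 1 had an unadjusted p under 0.05 in saline mutants against wild type, treated against saline mutants and treated mutants against wild type. Such a p was found for 19.9%, 8.29% and 12.5% of all genes, and nothing is read from counts this small. The medians were 0.11, -0.004 and 0.03, beside 0.07, -0.02 and 0.01 over all genes. Cul3, the scaffold itself, measured 142, 160 and 152 in wild type, 144, 136 and 136 in saline mutants, with 134, 142 and 144 in treated mutants. The saline mutants differed from wild type by -0.12 (SE 0.0932, adjusted p = 0.524). Cand2, a muscle-enriched exchange factor of cullin ligases, measured 98, 114 and 113, then 134, 129 and 108, then 115, 138 and 123. With median-of-ratios or upper-quartile scaling, 1 gene of the 25 passed between the saline groups.

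Reported partners and substrates of the muscle members formed a list of 12 genes, of which 11 were in the tables and 10 were tested. Between saline mutants and wild type 5 rose and none fell, where 7.71% of all genes passed, and the median difference was 0.51 beside 0.07 over all genes. Under the 17 alternatives 3 to 6 passed there. The list was chosen with earlier results of these data known, and this contrast chose the family. The count therefore describes these genes and is no test of the list. In treated against saline mutants none passed and 2 had an unadjusted limma p under 0.05 (all genes 8.29%), with a median of -0.15 beside -0.02 over all genes. In treated mutants against wild type 2 rose, Neb and Flnc, where 0.989% of all genes passed, and the median was 0.52 beside 0.01.

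Neb encodes nebulin, a giant protein of the thin filament in skeletal muscle, and the protein that KLHL40 and KLHL41 stabilise. It measured 2, 5 and 4 in wild type, 32, 24 and 28 in saline mutants, with 16, 16 and 14 in treated mutants. The groups did not overlap, and the treated libraries lay between the saline groups. Neb was 2.68 higher in saline mutants than in wild type (SE 0.252, limma adjusted p = 0.00057) and 1.86 higher in treated mutants than in wild type (SE 0.25, adjusted p = 0.0265). The difference of treated from saline mutants, -0.82 (SE 0.144), did not pass (adjusted p = 0.153). The call in treated mutants against wild type was lost without wild type 1, 2 or 3 (adjusted p = 0.0524, 0.0638 and 0.0847) and without treated 1 or 2 (0.0724 and 0.0837).

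Flnc, which encodes the Z-disc crosslinker filamin C on which KLHL31 acts, measured 194, 274 and 267 in wild type, 931, 596 and 471 in saline mutants, with 617, 684 and 505 in treated mutants. Both mutant groups were above wild type and overlapped with each other. Flnc was 1.40 higher in saline mutants (SE 0.24, limma adjusted p = 0.00878; 0.0524 without wild type 1) and 1.30 higher in treated mutants (SE 0.169, adjusted p = 0.026), and treated differed from saline mutants by -0.10 (adjusted p = 0.944). The call in treated mutants was lost without wild type 1, 2 or 3 (0.0684, 0.0782 and 0.0814) and without treated 1 or 2 (0.0687 and 0.0716).

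Nrap, which encodes the KLHL41-binding protein of myofibril ends, measured 463, 660 and 710 in wild type, 1470, 1089 and 1080 in saline mutants, with 851, 1265 and 1011 in treated mutants. No mutant library of either group fell within the wild-type range. The difference between the saline groups was 0.997 (SE 0.186, limma adjusted p = 0.0131), while treated mutants differed from wild type by 0.77 (adjusted p = 0.164). Des, the gene of the muscle intermediate filament desmin, measured 1772, 1720 and 1941 in wild type, 2605, 2728 and 2682 in saline mutants, with 2811, 3044 and 2236 in treated mutants. Des was 0.56 higher in saline mutants than in wild type (SE 0.106, limma adjusted p = 0.0137), a call lost without wild type 2 (0.0666) or mutant 2 (0.0912) and with median-of-ratios (0.139) or upper-quartile (0.116) scaling. Treated mutants were above wild type by the same 0.56, with an adjusted p of 0.140. E2f1, a cell cycle transcription factor whose activity KLHL40 has been reported to affect, measured 2, 2 and 1, then 6, 6 and 8, then 3, 2 and 3. It was 1.54 higher in saline mutants than in wild type (SE 0.222, limma adjusted p = 0.00391), and treated differed from saline mutants by -1.07 (adjusted p = 0.186).

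Members of the same list that did not pass included the leiomodins and nebulette, the cardiac relative of nebulin. Lmod2 measured 528, 557 and 737 in wild type, 861, 840 and 764 in saline mutants, with 812, 1223 and 706 in treated mutants, a difference of 0.45 between the saline groups (limma adjusted p = 0.0999). Lmod3, the leiomodin tied to KLHL40 and named here after its values were seen, measured 89, 111 and 104, then 91, 107 and 95, then 82, 73 and 91 (difference -0.05, adjusted p = 0.873). Nebl measured 230, 310 and 268, then 260, 241 and 239, then 164, 225 and 268 (difference -0.12, adjusted p = 0.679). Lmod2 was higher in every saline mutant than in every wild-type library, and Lmod3 and Nebl overlapped between those groups.

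**Figure D5:**
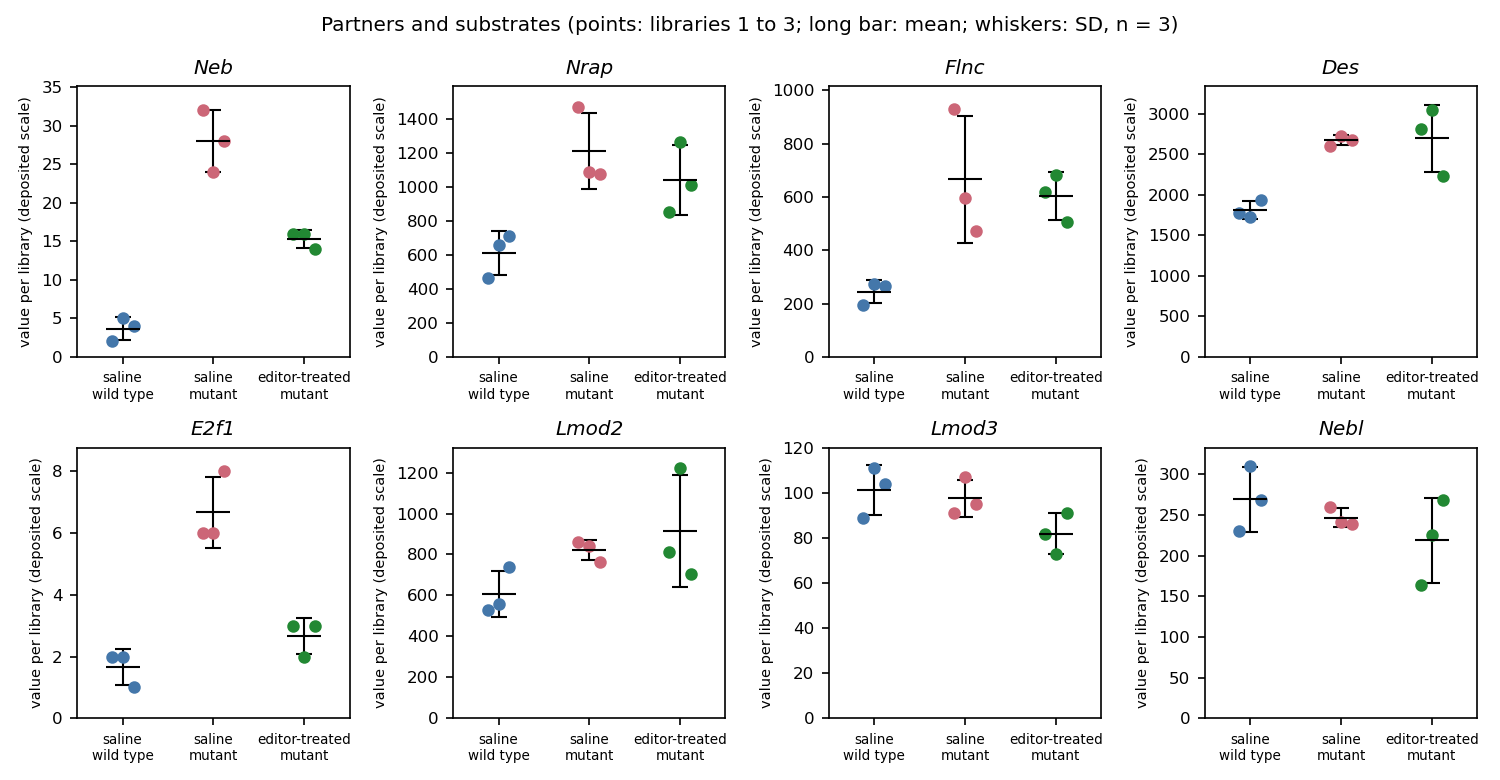
Values per library (deposited scale, axes from 0) of 8 partners and substrates of the muscle Kelch-like proteins, with group means (long bars) and SD of 3 libraries (whiskers). Neb lies at 2 to 5 in wild type, 24 to 32 in saline mutants and 14 to 16 in treated mutants, while Lmod3 and Nebl overlap between the saline groups.

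Since several of these genes belong to skeletal muscle, markers of that tissue were read beside them. Of 13 markers, 8 were in the tables, and their sum was 12 to 16 in wild type, 61 to 98 in saline mutants and 46 to 74 in treated mutants. Nearly all of it was Casq1, the calsequestrin of skeletal muscle, at 10, 13 and 13, then 97, 64 and 58, then 68, 40 and 54, which was 2.48 higher in saline mutants than in wild type (SE 0.199, limma adjusted p = 0.00026). Without Casq1 the other 7 markers summed to 2, 1 and 3 in wild type, 1, 4 and 3 in saline mutants and 6 in each treated library, which put every treated library above the others. Each of these 7 was at 0, 1 or 2 in every library, so their sums lie at the limit set by rounding. Most were too low to be tested. Of the fibroblast markers 2 of 7, Col1a1 and Col1a2, rose in saline mutants, where 7.71% of all genes passed the limma test. Their differences from wild type were positive for 6 of the 7 and negative for Dpt (-0.19). The 7 summed to 1342 to 1777 in wild type, 2054 to 3165 in saline mutants and 1578 to 2001 in treated mutants. Of the 6 endothelial and 6 macrophage markers none passed in any comparison. In saline mutants against wild type all 6 macrophage markers were higher (median 0.42) and all 6 endothelial markers lower (median -0.22), beside 0.07 over all genes. In treated against saline mutants all 6 macrophage markers were lower (median -0.43, all genes -0.02). Each macrophage marker overlapped between the groups in both comparisons. Of the 4 smooth muscle markers tested 1, Acta2, fell in saline mutants, where 7.71% of all genes passed. The single epidermal marker in the tables, Trp63, was at 1 or 2 in every library. The part of cell makeup in the values of Klhl33, Klhl40, Neb and Flnc was not tested.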

How the data were processed

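Polyadenylated RNA from 9 heart libraries was sequenced. The authors used HISAT2, HTSeq, DESeq2 and mm10, per the submitters' processing notes, which give neither versions nor settings. The deposited values per gene and library are treated as a score: whole numbers with nearly equal totals, so not read counts. The authors' log2 fold changes and standard errors were copied from the deposited tables. Each pair of groups was fitted on log2(value + 1) with limma 3.58.1 (R 4.3.3), keeping genes that averaged 1 or more over the 6 libraries. Residual variances were held at or above that of rounding to whole numbers, 1/12, and genes averaging 30 or more set the prior degrees of freedom. Calls required an adjusted p (Benjamini-Hochberg, over all tested genes) under 0.05. The fit was tested on simulated data. Depth is unknown, and 3 libraries per group limit the precision.

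Positions are from GENCODE M21 (GRCm38). The members, gene lists and tests were chosen with earlier results of these data known. The text names the 7 members, Mybpc3, the 5 genes most like Klhl33 by Pearson r, the genes beside Klhl33, called genes of the 3 lists with the 2 of highest deposited value in each (a rule for names only, since levels are not compared between genes), and markers a result turns on. Others are said to be named after their values were seen, or mark the ends of a list. The main fits did not pair libraries by replicate number. Same-number correlations ran from -0.37 to 0.566, a range that does not exclude pairing in some of them. Alternatives covered the pseudocount, the filter, scaling, the variance step, a replicate block, a fit of all 9 libraries and leaving libraries out.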

Additional observations from a re-analysis of the deposited data

How the results depend on the processing

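None of the 6 tested members passed in treated against saline mutants or in treated mutants against wild type under any of the 17 alternatives run for each. Few of all genes passed there (0.0293% and 0.989% in the main fit), so this says little about the 6. The single genes followed were the members, Mybpc3, Zfp651, Hhatl, Casq1 and the list genes called in some comparison. Over these, 59 values lost a call under an alternative and none gained one. Other list genes were not followed singly, and some gained a call. Between the saline groups the BTB-Kelch list had 1 to 4 called under the alternatives (2 in the main fit). The CUL3 list had 0 to 1 (main fit 0) and the list of partners and substrates 3 to 6 (main fit 5). The sign changed for 12 values of tested differences, none of which had passed, and for 10 values of the untested difference between the saline groups: 6 of Klhl31, 3 of Klhl24 and 1 of Klhl38, so no direction is read from those 3. Without the 3 libraries with Xist, the treated minus saline mutant differences were -0.041 for Klhl31, 0.0080 for Klhl38 and -0.031 for Des. With 1 library left out at a time they ran from -0.014 to 0.26 for Klhl31, -0.091 to 0.13 for Des, -0.18 to 0.018 for Klhl40, -0.24 to 0.025 for Klhl41 and -0.32 to 0.17 for Flnc, and that of Klhl31 in treated mutants against wild type from -0.0065 to 0.27. The causes were not tested. Klhl33 in saline mutants against wild type was -1.84 with a pseudocount of 4, and Klhl31 there was -0.088 with upper-quartile scaling and 0.098 without the 3 libraries with Xist.

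Over all genes, 1051, 4 and 134 were called in the 3 comparisons, with 523 to 1306, 2 to 35 and 1 to 243 under the alternatives. With a replicate block 824, 35 and 35 were called, and the calls of Klhl23 (adjusted p = 0.0621), Des (0.0722), Zfp651 (0.0818) and Hhatl (0.0642) in saline mutants, and of Klhl34 (0.0581), Neb (0.0581) and Flnc (0.0518) in treated mutants, were lost. With limma's trend alone Flnc (0.0631), Nrap (0.067), Klhl23 (0.0523) and Hhatl (0.0664) lost their calls between the saline groups, and Flnc (0.0861), Neb (0.0921) and Klhl34 (0.0572) theirs in treated mutants. Without the 3 libraries with Xist the treated mutant calls of Neb (0.0905), Flnc (0.114) and Klhl34 (0.114) and the saline mutant calls of Zfp651 (0.0569) and Hhatl (0.0976) were lost, and that of Zfp651 also with median-of-ratios (0.0921) or upper-quartile (0.0830) scaling. Rounding to whole numbers limits the precision of genes with low values such as Neb, E2f1 and Klhl40.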
